A study of Arabidopsis thaliana with 12 samples.

Results

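A transfrag is a piece of transcript that an assembler built from the reads of 1 library. The tables of 12 Arabidopsis thaliana seedling libraries held 353616 transfrags, and 5766 of them carried a class code that places them outside the exons of an annotated gene on its own strand. Of these, 3164 lay within an intron of a gene (class i), 267 overlapped an exon on the opposite strand (class x), and 2335 were run-on pieces, which lie shortly beyond a gene without overlapping it (class p). They were taken by class code and joined between libraries by the locus identifier of the reference gene, which gave 1249 intronic, 105 antisense and 550 run-on genes, 1849 distinct genes in all. The sense transfrags, which match or overlap exons on the gene's strand, numbered 345442 in 20869 genes.

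The groups were smxl5-1, the double mutant smxl4-1 smxl5-1, smax1-2 and WT, with 3 libraries each. All plants were Col seedlings 7 days old, grown on half-strength MS plates at 21 °C with 12 h of light and 12 h of dark, and each library pooled 15 whole seedlings, so no organ or cell type can be told apart. SMXL4, SMXL5 and SMAX1 encode related nuclear proteins, and SMAX1 is removed in karrikin signalling. The sense level of SMXL5 was 38.83, 39.04 and 38.15 FPKM where the label is smxl5-1 and 7.08, 7.09 and 10.3 FPKM where it is smxl4-1 smxl5-1. In WT it was 3.04, 4.26 and 4.72 FPKM, so this transcript was not lower in either mutant. All libraries of both mutants lay above WT, and smxl5-1 lay above the double mutant, though both labels name smxl5-1. The cause was not tested. SMXL4 stood at 3.31, 2.58 and 4.25 FPKM in smxl4-1 smxl5-1, against 1.13, 1.6 and 1.82 FPKM in WT, and also lay above WT. SMAX1 stood at 18.2, 15.2 and 17.3 FPKM in smax1-2, against 22.5, 21.3 and 21.3 FPKM in WT, and its groups did not overlap. A level over a whole gene does not show whether an allele makes a working protein, so the genotypes below are those of the labels.

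Introns are removed by the spliceosome as a lariat that is then degraded. Intronic sequence in poly-A RNA can come, among other sources, from retained introns, from transcripts that end inside an intron, or from genes nested in one. Antisense transcripts run across a gene on the other strand, and in Arabidopsis the best studied ones accompany FLC and DOG1. Transcription continues past the poly-A site until the polymerase is released, and pieces found there can be read-through RNA or a separate transcript that starts beyond the gene. In bulk seedlings, fewer cells with a transcript and less of it per cell cannot be told apart.

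The transfrags have lengths but no coordinates in the tables, so their own sequences are not shown. The sequences below are annotated elements of the RefSeq TAIR10.1 genome that the recurrent transfrags are set against, each 5′ to 3′ on its annotated strand. The first is an intron of LFNR2 whose full length of 272 nucleotides is that of the intronic transfrag in 9 of 12 libraries, with its first and last dinucleotides in capitals. It lies on chromosome 1 from 6942956 to 6943227 on the plus strand, and GT and AG ends are carried by 98.3% of 136308 annotated introns.
LFNR2 intron 1: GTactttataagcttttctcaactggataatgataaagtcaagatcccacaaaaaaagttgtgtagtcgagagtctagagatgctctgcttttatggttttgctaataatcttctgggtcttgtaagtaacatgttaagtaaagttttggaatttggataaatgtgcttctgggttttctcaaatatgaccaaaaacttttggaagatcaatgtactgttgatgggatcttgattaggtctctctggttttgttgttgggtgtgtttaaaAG

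The other 3 are noncoding genes that lie beyond genes with a run-on transfrag in all 12 libraries, shown because run-on genes found in every library mostly had such a neighbour. AT2G00920, annotated as misc_RNA, lies 432 nucleotides beyond the end of WRKY12 on the opposite strand (chromosome 2, 18446475 to 18446770, plus strand). AT1G04733, an snRNA gene, lies 189 nucleotides beyond ECT11 on the same strand (chromosome 1, 3180548 to 3180736, minus strand). AT1G05907, a snoRNA gene, lies 623 nucleotides beyond THO2 on the opposite strand (chromosome 1, 8756228 to 8756303, minus strand). The neighbour is shorter than the median run-on transfrag for WRKY12 (296 against 404 nucleotides) and THO2 (76 against 138.5). For ECT11 it is longer (189 against 119).
AT2G00920: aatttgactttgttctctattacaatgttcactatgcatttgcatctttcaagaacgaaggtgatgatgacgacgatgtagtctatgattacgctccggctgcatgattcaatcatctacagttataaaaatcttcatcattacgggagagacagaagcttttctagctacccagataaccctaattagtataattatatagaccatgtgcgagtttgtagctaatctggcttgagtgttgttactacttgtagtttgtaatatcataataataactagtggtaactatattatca
AT1G04733: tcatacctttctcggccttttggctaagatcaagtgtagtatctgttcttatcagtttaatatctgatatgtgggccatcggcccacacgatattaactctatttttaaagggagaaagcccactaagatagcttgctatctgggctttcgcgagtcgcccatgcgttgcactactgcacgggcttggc
AT1G05907: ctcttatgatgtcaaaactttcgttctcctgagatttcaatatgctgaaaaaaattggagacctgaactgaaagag

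Intronic transfrags were short, with a median of 182 nucleotides, antisense transfrags had a median of 339 and run-on transfrags of 284, against 900 for sense transfrags. Abundance in the tables is in FPKM, fragments per kilobase scaled to library size, and for short pieces this unit rose steeply: the median was 1524 FPKM for intronic transfrags under 100 nucleotides and 5.45 FPKM for those of 300 or more. Transfrags under 100 nucleotides made up 15.5% of the intronic ones and 97.1% of their summed FPKM, and 6.17% of the run-on ones and 97.7% of their summed FPKM. Summed FPKM over a class is thus mostly that of its shortest pieces. The width of the deposited FPKM bounds gives a second measure, the number of fragments whose counting error has that width, called implied fragments here. By it the short pieces held 13.2% of the intronic and 7.06% of the run-on fragments, and the median transfrag had 14 implied fragments for intronic, 23.5 for antisense and 18.0 for run-on pieces, against 132 for sense.

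**Figure D1:**
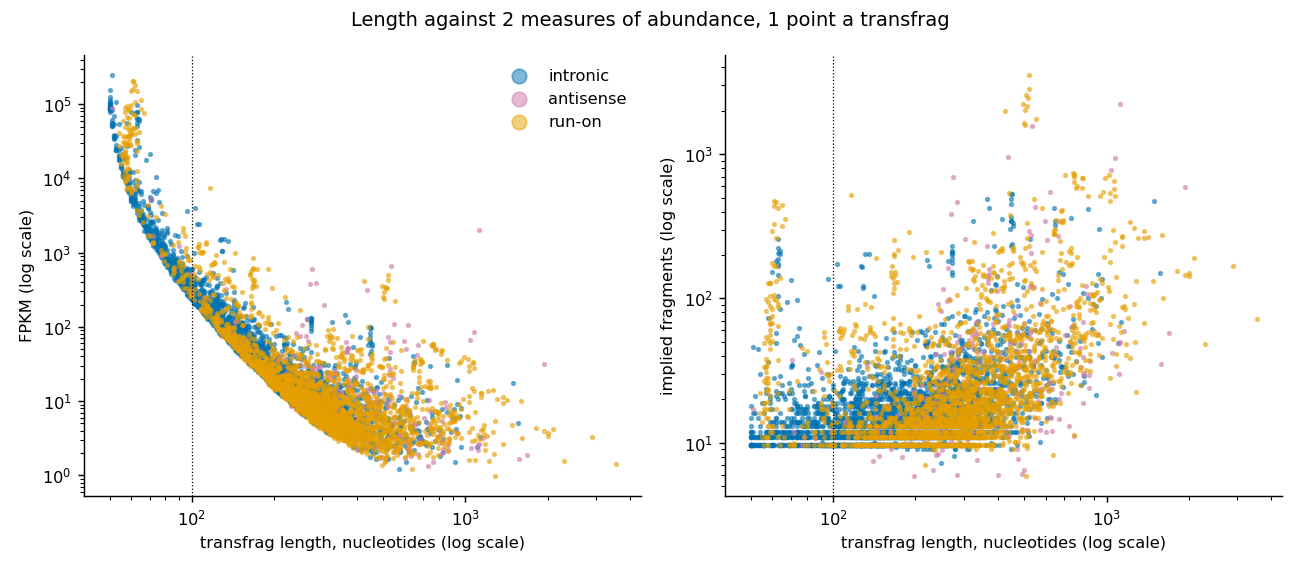
Length in nucleotides (x axis, log scale) against FPKM (left, log scale) and implied fragments (right, log scale), 1 point for each of the 5766 transfrags, coloured by class. FPKM climbs steeply to the left of the dotted line at 100 nucleotides, while the implied fragments there mostly stay near the median of 14 for intronic pieces.

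Most intronic and antisense genes were listed in a single library. Of the 1249 intronic genes 639 (51.2%) were listed in 1 library, as were 59 of 105 antisense genes (56.2%) and 216 of 550 run-on genes (39.3%). Genes listed in all 12 libraries numbered 6 intronic (0.48%), 1 antisense (0.952%) and 46 run-on (8.36%). Of the 20869 genes with a sense transfrag, 78.8% had one in all 12 libraries and 2.92% in 1 library. The smallest listed transfrag had 7.24 implied fragments for intronic, 5.92 for antisense and 5.87 for run-on pieces. A gene without a listed transfrag is given as 0, which is not a measured absence.

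Abundant members were also listed in some libraries and not in others. AT1G07770, a gene for ribosomal protein S15a, had a run-on transfrag of 1600 to 3558 implied fragments in 11 libraries and none in smxl4-1 smxl5-1 replicate 1. AT1G56220 had an intronic transfrag of 318 to 533 implied fragments in 10 libraries and none in smxl4-1 smxl5-1 replicate 2 and WT replicate 3. AT2G34430, a light-harvesting chlorophyll protein gene, had an antisense transfrag of 2227 implied fragments in smxl4-1 smxl5-1 replicate 1 and none in the other 11 libraries. Its sense level ran from 0 to 3025 FPKM over the libraries, where 0 means that no sense transfrag was listed. These 3 genes were chosen after their values were seen, as the deepest of their class, and their listed values lie far above the smallest listed transfrag.

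The longest annotated intron of the host gene had a median of 471 nucleotides for intronic genes and 274 for all genes with a sense transfrag, and an annotated gene nested in an intron was present in 33 of 1240 intronic genes (2.66%) and 0.878% of sense genes. By its class an intronic transfrag needs an intron that can hold it. The sense genes include genes without introns, which lower their median and cannot hold a nested gene. The bases are thus unlike, and nothing is read from these differences. Of 3134 intronic transfrags in annotated genes, 98.7% were no longer than the longest intron of the gene, 29.7% could fit in 1 intron alone, and 1.56% had exactly the length of an intron. A sense transfrag of the same gene was listed in the same library for 97.1% of intronic gene and library pairs, 82.1% of antisense pairs and 65.4% of run-on pairs. The median sense level of these hosts was 20.7 FPKM for intronic, 5.89 for antisense and 11.1 for run-on pairs, against 11.6 over all sense genes.

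Antisense genes had an annotated gene on the opposite strand in 58 of 99 annotated cases (58.6%), against 27.8% of sense genes. Among these 99 were 8 pseudogenes and 7 tRNA genes. The protocol's strand handling is not given in the sources used here, so reads of a gene and of its antisense partner may not have been separable. Some genes belonged to more than 1 class: 22 were both antisense and intronic (21.0% of the antisense and 1.76% of the intronic genes), 24 both run-on and intronic (4.36% and 1.92%), and 9 both antisense and run-on (8.57% and 1.64%). Mitochondrial genes made up 17 of the 550 run-on genes (3.09%), against 0.177% of sense genes.

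Many run-on genes had a noncoding neighbour. A noncoding gene of the TAIR10.1 annotation lay within 2000 nucleotides downstream of 215 of 528 annotated run-on genes (40.7%), against 14.9% of sense genes and 13.9% of intronic genes. Antisense genes shared this trait, with 43 of 99 (43.4%). Their share was 35.7% when listed in 1 library, 54.8% in 2 to 5 and 54.5% in 6 to 11. The share was 30.1% for run-on genes listed in 1 library, 38.9% in 2 to 5, 49.5% in 6 to 11 and 79.1% in all 12 (34 of 43 annotated genes). The neighbours of these 34 genes were 19 lncRNA, 8 misc_RNA, 3 snoRNA, 2 ncRNA, 1 snRNA and 1 miRNA genes, with a median distance of 583.5 nucleotides, and 14 lay on the strand of the host gene. The median run-on transfrag was no longer than its neighbour in 21 of the 34. Only 2 of these 34 neighbours were named as a reference gene anywhere in the 12 tables, and of the 2886 noncoding genes lying downstream of sense genes 8.77% were. Because the transfrags have no coordinates, whether they lie on these neighbours was not tested.

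**Figure D2:**
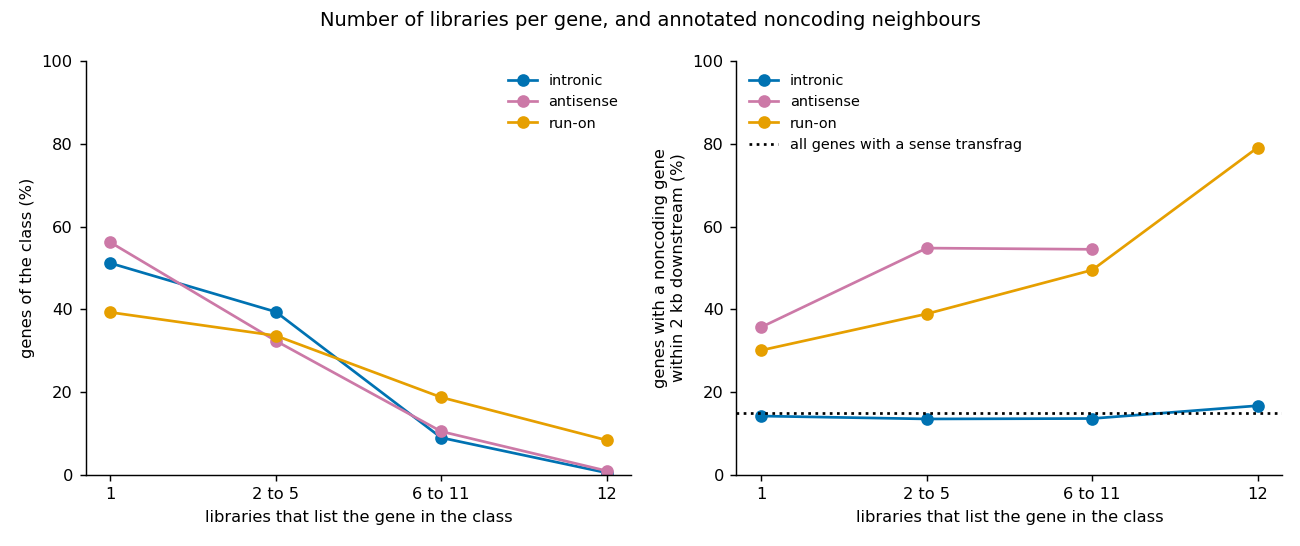
Left, percent of the genes of each class by the number of libraries that list them; right, percent of annotated genes with a noncoding gene within 2000 nucleotides downstream, by the same bins, with the value over all genes that have a sense transfrag as a dotted line. The run-on line climbs to 79.1% at 12 libraries while the intronic line stays at 13.5% to 16.7%. The antisense line lies at 35.7% to 54.8%, and the single antisense gene in 12 libraries is left out of the right panel.

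Of the 6 intronic genes in every library, LFNR2 (AT1G20020, leaf ferredoxin-NADP reductase, which passes electrons from photosystem I to NADP) had a transfrag of 272 nucleotides in 9 libraries. It had 153, 184 and 146 implied fragments in smxl5-1, 93.3, 199 and 230 in smxl4-1 smxl5-1 and 176, 215 and 189 in smax1-2, against 206, 181 and 212 in WT. The groups overlapped, and the lowest value belonged to the double mutant replicate that listed 2 pieces, of 78 and 72 nucleotides, in place of 1. Together they gave 10174 FPKM where the other 11 libraries lay at 89.0 to 214 FPKM, while the sense level of LFNR2 ran from 299 to 379 FPKM in all 12 libraries. The differences from WT were -0.23 ± 0.25 for smxl5-1, -0.28 ± 0.25 for smxl4-1 smxl5-1 and -0.04 ± 0.25 for smax1-2 (log2 of implied fragments scaled to the library total, SE, limma adjusted p = 0.781, 0.755 and 1).

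JMJ15 (AT2G34880, a histone H3K4 demethylase) had an intronic piece of 60 to 64 nucleotides in every library and no sense transfrag in any. It had 260, 145 and 57.6 implied fragments in smxl5-1, 168, 225 and 212 in smxl4-1 smxl5-1 and 152, 173 and 181 in smax1-2, against 205, 208 and 189 in WT. In FPKM these are 24260 to 98304, and the groups overlapped. Its 9 introns reach 1059 nucleotides, so the piece could lie in more than 1 of them.

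RPP7 (AT1G58602) is a disease resistance gene with a transposon-bearing heterochromatic intron, where the protein EDM2 affects whether transcripts end early. Its longest annotated intron has 7384 nucleotides and holds the pseudogene AT1G58561 (chromosome 1, 21748675 to 21753246). The files listed 39 intronic transfrags for it over the 12 libraries, with 122, 34.5 and 129 implied fragments in smxl5-1, 53.6, 61.3 and 46.5 in smxl4-1 smxl5-1 and 74.9, 46.0 and 95.9 in smax1-2, against 81.1, 32 and 37.6 in WT. The groups overlapped, and WT replicate 2 reached 28014 FPKM with 32 implied fragments.

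RZ1C (AT5G04280, a glycine-rich RNA-binding protein that acts in splicing) had 29 intronic transfrags, of 11 to 151 implied fragments a library. Its 3 smxl5-1 libraries gave 11, 21.0 and 61.3 and its 3 double mutant libraries 83.7, 115 and 103, while smax1-2 gave 56.9, 122 and 151, against 79.4, 61.2 and 39.7 in WT. The double mutant libraries lay above the WT ones, at 0.63 ± 0.42 (log2 of implied fragments scaled to the library total, SE, limma adjusted p = 0.638). NIT4 (AT5G22300, a nitrilase that detoxifies cyanide products) had 1 piece per library, of 237 to 732 nucleotides and 11 to 46.7 implied fragments, and AT4G39955 had 1 piece of 9.59 to 31. For none of the 6 did a difference of a mutant from WT pass an adjusted p of 0.05, in FPKM or in implied fragments.

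AT1G13609, a gene of the defensin-like family (chromosome 1, 4662698 to 4663253, plus strand, 2 exons), was the antisense gene found in every library. Its antisense transfrag had 428, 691 and 467 implied fragments in smxl5-1, 590, 544 and 346 in smxl4-1 smxl5-1 and 347, 274 and 254 in smax1-2, against 269, 295 and 206 in WT. All smxl5-1 and double mutant libraries lay above the 3 WT libraries, and the smax1-2 libraries overlapped WT. In implied fragments smxl5-1 differed from WT by 1.04 ± 0.24 and smxl4-1 smxl5-1 by 0.86 ± 0.24 (log2, SE, limma adjusted p = 0.127 and 0.149), so neither passed the threshold. In FPKM the double mutant was lower than smxl5-1, at 31.6, 105 and 56.8 against 109, 604 and 386, by -2.34 ± 0.60 (limma adjusted p = 0.0491; 0.014 to 0.134 without 1 library at a time, 0.0506 with a pseudocount of 0.1 and 0.187 with plain FPKM sums), but the transfrags had 619 to 1935 nucleotides in the double mutant and 275 to 547 in smxl5-1, and in implied fragments the difference was -0.18 ± 0.24 (adjusted p = 0.757). The sense level was 195, 80 and 265 FPKM in smxl5-1, 0, 193 and 215 in smxl4-1 smxl5-1 and 99.7, 98.0 and 116 in smax1-2, against 152, 105 and 136 in WT, and the library without a sense transfrag is the one with the antisense piece of 1935 nucleotides.

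The 46 run-on genes in every library had a median transfrag of 352 nucleotides. Between the highest and lowest library, the implied fragments of a gene differed by 1.43 to 18.5 times with a median of 3.48, and FPKM by 1.49 to 6900 times with a median of 5.03. For 10 of the 46 no library listed a sense transfrag, and for 27 all 12 did. The 3 with the highest FPKM were AT2G22821, GH3.6 (an enzyme that conjugates auxin with amino acids) and PPT1 (a phosphoenolpyruvate transporter of the plastid), with median pieces of 62, 59 and 61 nucleotides, and none of these 3 had a noncoding gene within 2000 nucleotides downstream. AT2G22821 reached 204650 FPKM with at most 522 implied fragments. RPL8A (a ribosomal protein), AT2G20400, EIN3 (the ethylene transcription factor), ECT11 (an m6A reader) and AT5G46560 followed with medians of 442 to 834 FPKM. EIN3 had 9.59 to 26.9 implied fragments, the fewest of these 8, and AT5G46560 was among the steadiest, at 109 to 253 implied fragments.

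Among the longest run-on pieces were those of AT3G29647 with a median of 1023.5 nucleotides, AT5G24210 with 853, AT3G46840 with 768.5 and GRXS16, a plastid glutaredoxin, with 758. AT3G46840, a subtilase gene, held 643, 513 and 581 implied fragments in smxl5-1, 587, 717 and 735 in smxl4-1 smxl5-1 and 683, 725 and 713 in smax1-2, against 685, 599 and 697 in WT. It had no sense transfrag in any library, and its groups overlapped. MIR156A, picked after its values were seen, is the precursor of the microRNA that holds plants juvenile; it had a run-on transfrag of 13 to 49.6 implied fragments in every library and a sense transfrag in 1, and the lncRNA gene AT2G08100 lies 703 nucleotides beyond it.

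The test across genotypes covered 19523 values, sense and other classes together, of which 639 were intronic, antisense or run-on. Calls are values whose p from limma on log2(FPKM + 1), after Benjamini-Hochberg adjustment over the whole table, was under 0.05. In smxl4-1 smxl5-1 against WT 10 of the 639 (1.56%) were called, 5 higher and 5 lower, against 2.17% of all values. In smxl5-1 against WT 3 were called (0.469%, all values 0.686%) and in smax1-2 against WT 7 (1.1%, all values 0.123%). Between mutants, 12 were called for smxl4-1 smxl5-1 against smxl5-1 (1.88%, all values 6.24%), 8 for smxl4-1 smxl5-1 against smax1-2 (1.25%, all values 2.63%) and 7 for smxl5-1 against smax1-2 (1.1%, all values 0.604%). Of these calls 5, 3, 6, 10, 8 and 7 in the order given were genes listed in all 3 libraries of one genotype and none of the other. For these the unlisted libraries share the value 0 and have no spread, and the choice of members used the contrast, so they are described further on and carry no test.

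The called values listed in both genotypes were few, and the run-on transfrags of 2 genes were called in FPKM and in implied fragments alike. The first was the run-on transfrag of AT3G29647, a pseudogene (chromosome 3, 11508519 to 11509043, plus strand) with no sense transfrag in any library. It had 216, 209 and 194 implied fragments in smxl4-1 smxl5-1, against 723, 577 and 654 in WT. smxl5-1 gave 544, 685 and 512 and smax1-2 gave 476, 534 and 514, so the 3 double mutant libraries lay below all 9 others. The difference from WT was -1.60 ± 0.11 in log2 of implied fragments scaled to the library total (SE, limma adjusted p = 7.49e-05). In FPKM it was 11.7, 25.4 and 10.8 in smxl4-1 smxl5-1 against 36.6, 32.4 and 34.1 in WT, or -1.16 ± 0.25 (adjusted p = 0.0491). Without 1 library at a time the adjusted p ran from 0.000133 to 0.000725 in implied fragments and from 0.000347 to 0.154 in FPKM, where it was under 0.05 without smxl4-1 smxl5-1 replicate 2 and above it without any of the other 11 libraries. The FPKM call also ended with a pseudocount of 0.1 (adjusted p = 0.0544), no filter (0.0586), plain FPKM sums (0.213) and a fit of the 639 members alone (0.992). The double mutant was also lower than smxl5-1, by -1.50 ± 0.11 in implied fragments (adjusted p = 0.000135) and -1.21 ± 0.25 in FPKM (adjusted p = 0.0245), whereas smxl5-1 against WT gave -0.11 ± 0.11 (adjusted p = 0.758). The nearest noncoding gene, the lncRNA AT3G05945, lies 1046 nucleotides downstream on the opposite strand.

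The second was the run-on transfrag of WRKY12 (AT2G44745, chromosome 2, 18447203 to 18449093, minus strand), a transcription factor that represses secondary wall formation in stem pith. It had 536, 218 and 192 implied fragments in smxl4-1 smxl5-1, against 43.4, 56.0 and 42.4 in WT. smxl5-1 gave 141, 96.0 and 158 and smax1-2 gave 107, 29.0 and 47.5, so the double mutant libraries lay above all others, smxl5-1 above WT, and smax1-2 overlapped WT. The difference of the double mutant from WT was 2.23 ± 0.43 in log2 of implied fragments scaled to the library total (SE, limma adjusted p = 0.0371) and 2.39 ± 0.40 in FPKM (adjusted p = 0.0165). Without 1 library at a time the adjusted p ran from 0.0103 to 0.0687 in FPKM, above 0.05 without smxl4-1 smxl5-1 replicate 2, WT replicate 1 or WT replicate 3. In implied fragments it ran from 0.0304 to 0.138 and was under 0.05 without smxl5-1 replicate 2, smax1-2 replicate 1 or smax1-2 replicate 2, and above it without any of the others. The FPKM call also ended with plain FPKM sums (adjusted p = 0.0718) and a fit of the 639 members alone (0.68). The double mutant was also higher than smax1-2 in implied fragments, by 2.06 ± 0.43 (adjusted p = 0.044), with 1.22 ± 0.40 in FPKM (adjusted p = 0.179). For smxl5-1 against WT the difference was 1.26 ± 0.43 in implied fragments and 1.66 ± 0.40 in FPKM (adjusted p = 0.288 and 0.0977). WRKY12 itself had a sense transfrag in 1 of 12 libraries, at 0.98 FPKM in smax1-2 replicate 2. The transfrag had 282 to 482 nucleotides with a median of 404, and AT2G00920, printed above, has 296 and is shorter than that median.

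The other called values depended on the measure. NAC60 run-on (AT3G44290, a NAC transcription factor) had 3.80, 0 and 2.05 FPKM in smxl4-1 smxl5-1, against 36.9, 79.5 and 17.8 FPKM in WT. AT4G31980 intronic had 31.9, 36.1 and 25.9 FPKM in smxl4-1 smxl5-1 and 76.7, 47.5 and 65.3 in smax1-2, against 4.91, 5.84 and 0 FPKM in WT. RPS6 intronic (AT5G46470, a resistance gene of the TIR-NBS-LRR type) had 6.76, 0 and 0 FPKM in smxl4-1 smxl5-1, against 55.1, 22.4 and 24.0 FPKM in WT. None of these groups overlapped in FPKM. RPS6 reached the minimum of 3 libraries only through WT, where it is high, so its call carries no test. The other 2 were called in FPKM for smxl4-1 smxl5-1 against WT, at -3.98 ± 0.69 for NAC60 and 3.22 ± 0.59 for AT4G31980 (limma adjusted p = 0.018 and 0.0248). Without 1 library at a time the adjusted p ran from 0.0177 to 0.0701 and from 0.00142 to 0.0851. With a pseudocount of 0.1 it was 0.0611 and 0.122, and with plain FPKM sums 0.0844 and 0.104. In implied fragments the same differences were -0.44 ± 0.45 and 0.79 ± 0.33 (adjusted p = 0.79 and 0.394). AT4G31980 was also called in smax1-2 against WT, at 4.198 ± 0.59 in FPKM (limma adjusted p = 0.0331; 0.000242 to 0.174 without 1 library at a time) and 0.17 ± 0.33 in implied fragments (adjusted p = 0.979). Its smax1-2 pieces had 140 to 163 nucleotides and its WT pieces 336 and 348.

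In implied fragments 339 members were tested, and 6 were called for smxl4-1 smxl5-1 against WT (all values 1.22%). For smxl5-1 against WT limma called 0 (all values 0.189%), with 3 calls in FPKM, and for smax1-2 against WT it called 2 (all values 0.0358%). In the first of these comparisons 26 members had an unadjusted limma p under 0.05. The share of all values under that unadjusted threshold was not computed, so nothing is read from the 26. For smxl4-1 smxl5-1 limma called 5 against smxl5-1 (all values 2.47%) and 6 against smax1-2 (all values 1.56%), and for smxl5-1 against smax1-2 it called 2 (all values 0.22%). Genes in 3 and 0 libraries made up 2 of the 6 calls for smxl4-1 smxl5-1 against WT, both for smax1-2 against WT, 2 of 5 and 1 of 6 for smxl4-1 smxl5-1 against smxl5-1 and smax1-2, and both for smxl5-1 against smax1-2. These carry no test, as above, and nothing is read from their counts. The genes that follow were called in implied fragments alone. They were not picked by the rule for naming genes and were chosen after their values were seen. AT1G05040 run-on had 120, 190 and 190 implied fragments in smxl4-1 smxl5-1, against 49.9, 52 and 40.9 in WT, and smxl5-1 and smax1-2 stood at 12.0 to 40.9. The double mutant libraries lay above all others, with 1.48 ± 0.28 against WT (log2, SE, limma adjusted p = 0.0335) and 0.55 ± 0.62 in FPKM (adjusted p = 0.771). Its longest pieces had 1808 to 3551 nucleotides in smxl4-1 smxl5-1 and 867 to 1268 in WT. AT4G05310 run-on had 13 implied fragments in 1 smxl4-1 smxl5-1 library and was unlisted in the other 2, against 34.7, 49.9 and 93.7 in WT, with 58.2 to 104 in smxl5-1 and 36.2 to 86.6 in smax1-2. The difference from WT was -1.90 ± 0.39 (adjusted p = 0.049), with -2.66 ± 0.71 in FPKM (adjusted p = 0.1). CYP94C1 run-on, of a jasmonate-oxidizing enzyme, was lower in smxl4-1 smxl5-1 than in smax1-2, at 11, 0 and 18.0 against 62.7, 52.8 and 47.5 implied fragments (-1.55 ± 0.31, adjusted p = 0.0363).

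**Figure D3:**
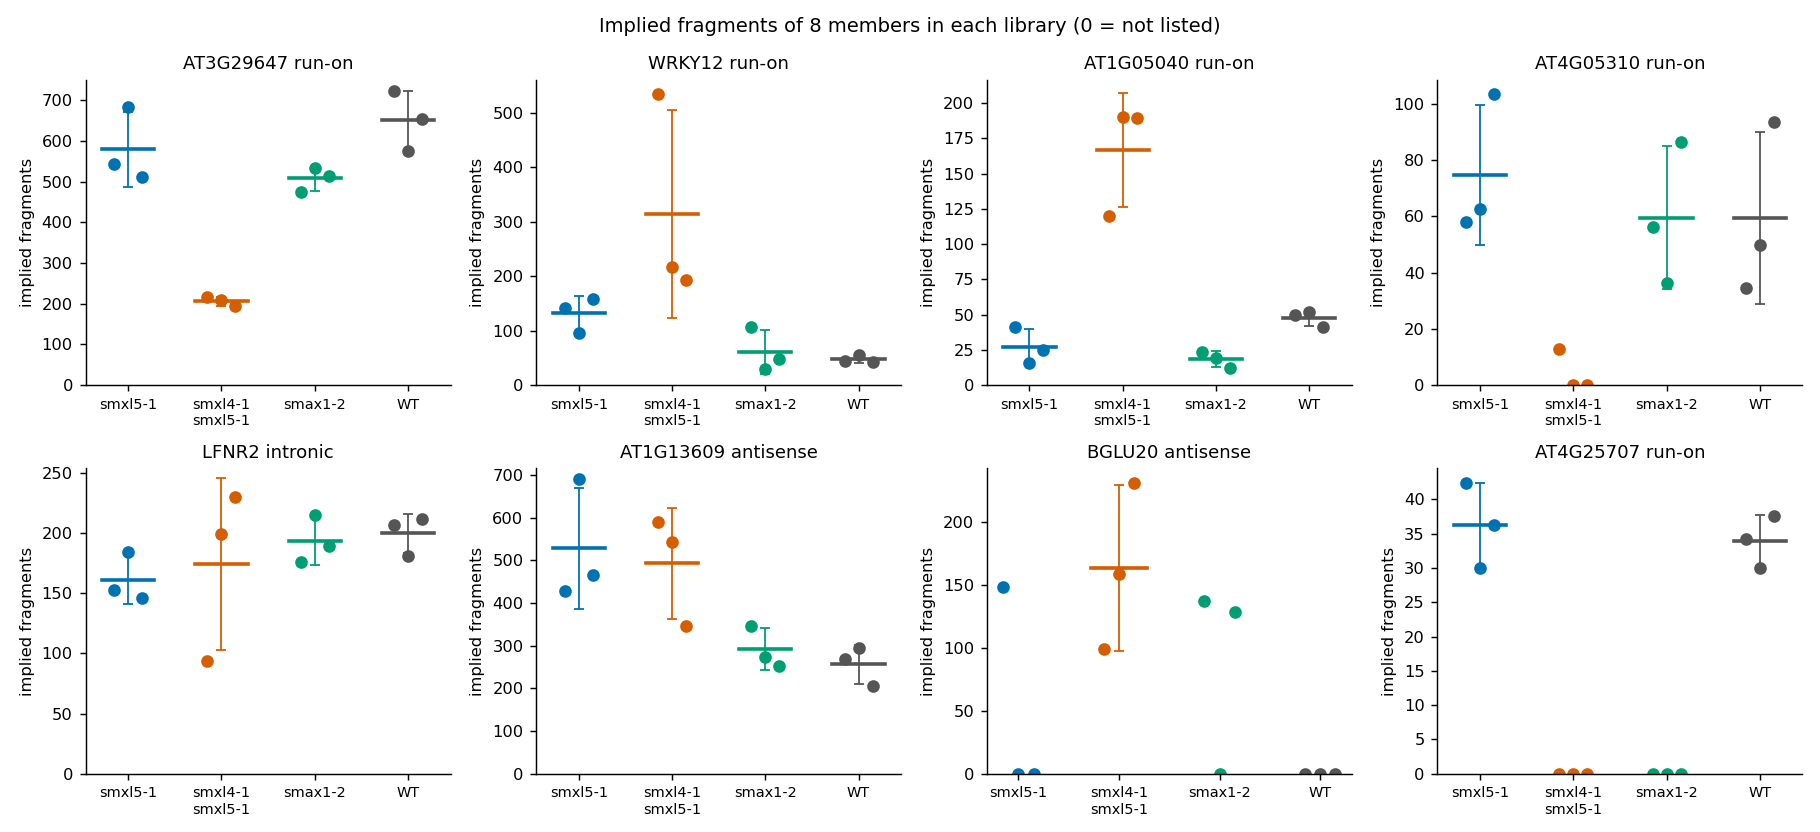
Implied fragments (y axis, from 0) of 8 members in each library by genotype; points are libraries, the bar is the mean and the whisker the SD of 3 libraries, left out where a library is unlisted (0). The double mutant sits at 194 to 216 for AT3G29647, below every other library, and at 192 to 536 for WRKY12, above every other library; LFNR2 overlaps in all groups.

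No difference between genotypes in the number of transfrags passed the test. Intronic transfrags numbered 251, 190 and 195 in smxl5-1, 224, 423 and 294 in smxl4-1 smxl5-1 and 284, 343 and 259 in smax1-2, against 222, 230 and 249 in WT. The smax1-2 libraries lay above the WT libraries, with a mean of 295 ± 43.1 against 234 ± 13.9 (SD, n = 3 each), and the other mutants overlapped WT. An exact permutation test of the spread between the 4 genotypes over all 369600 assignments gave p = 0.151 (adjusted 0.452 over 6 values), and smax1-2 against WT gave an exact two-sided p = 0.1, the smallest that 3 against 3 allows. The smxl5-1 libraries lay below the smax1-2 libraries, also with an exact p = 0.1. Transfrags of all classes were also more numerous in smax1-2, at 30357, 30128 and 30270, against 28730, 28610 and 28753 in WT. As a percent of these, intronic transfrags made up 0.936, 1.14 and 0.856 in smax1-2 and 0.773, 0.804 and 0.866 in WT, which overlapped. In smxl5-1 they made up 0.843, 0.683 and 0.668, still below smax1-2. Replicate 2 of smxl4-1 smxl5-1 had the most intronic transfrags, 423, and also the most pieces contained in a longer reference transcript, 14174, against 8750 to 12960 in the other 11 libraries, and the shortest median transfrag, 745 nucleotides. The part of this fragmentation in its intronic count was not tested.

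Antisense transfrags numbered 26, 17 and 21 in smxl5-1, 25, 30 and 19 in smxl4-1 smxl5-1 and 25, 21 and 22 in smax1-2, against 22, 13 and 26 in WT (exact permutation p = 0.732, adjusted 0.878). Run-on transfrags numbered 211, 150 and 197 in smxl5-1, 181, 222 and 208 in smxl4-1 smxl5-1 and 208, 202 and 206 in smax1-2, against 187, 170 and 193 in WT (exact permutation p = 0.451, adjusted 0.878). In run-on number the smax1-2 libraries lay above WT and the others overlapped it. As a percent of all transfrags of the library, smax1-2 had 0.685, 0.67 and 0.681 and WT 0.651, 0.594 and 0.671, which overlapped. Implied fragments gave adjusted permutation p values of 0.452 for intronic, 0.878 for antisense and 0.955 for run-on, the last with means of 10450 ± 1830 in smxl5-1, 10730 ± 2470 in smxl4-1 smxl5-1 and 10180 ± 336 in smax1-2, against 10030 ± 833 in WT (SD, n = 3 each). Over all classes the libraries held 27825 to 31919 transfrags and 14246284 to 16719167 implied fragments.

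**Figure D4:**
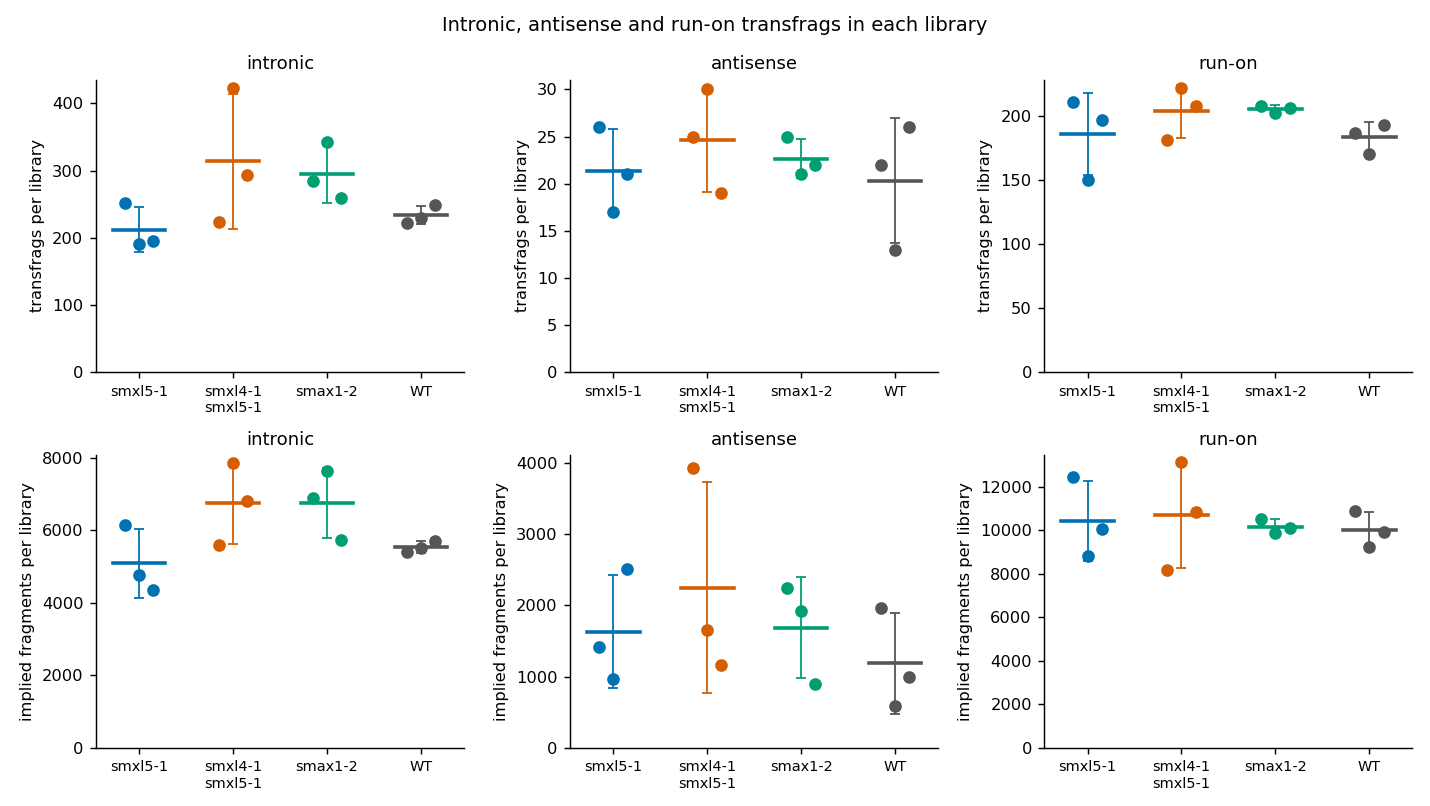
Transfrags (top, y axis from 0) and implied fragments (bottom, y axis from 0) of each class in each library by genotype; points are libraries, bars means and whiskers the SD of 3 libraries. The intronic panel shows replicate 2 of smxl4-1 smxl5-1 at 423, and the run-on implied fragments overlap in all groups.

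Genes listed in all 3 libraries of one genotype and none of another numbered 56 distinct gene and class pairs of 1904, over 6 pairs of genotypes in both directions. These genes were chosen by the contrast, so their counts and values are a description. Sense genes listed in all 12 libraries, 78.8% of them, cannot have this pattern, and neither can members listed in fewer than 3. The shares given for members and sense genes thus have unlike bases, and nothing is read from their difference. In smxl5-1 and not in WT there were 5 (0.263% of 1904, sense genes 0.235%), and 7 in WT and not in smxl5-1 (0.368%, sense 0.182%). In smxl4-1 smxl5-1 and not in WT there were 11 (0.578%, sense 0.369%), and 9 in WT and not in the double mutant (0.473%, sense 0.225%). In smax1-2 and not in WT there were 11 (0.578%, sense 0.182%), and 5 in WT and not in smax1-2 (0.263%, sense 0.11%). Between mutants there were 12 and 8 for smxl4-1 smxl5-1 and smxl5-1 (0.63% and 0.42%, sense 0.288% and 0.273%), 5 and 10 for smxl4-1 smxl5-1 and smax1-2 (0.263% and 0.525%, sense 0.268% and 0.345%), and 6 and 8 for smxl5-1 and smax1-2 (0.315% and 0.42%, sense 0.216% and 0.23%), in each pair first those present in the genotype named first.

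**Figure D5:**
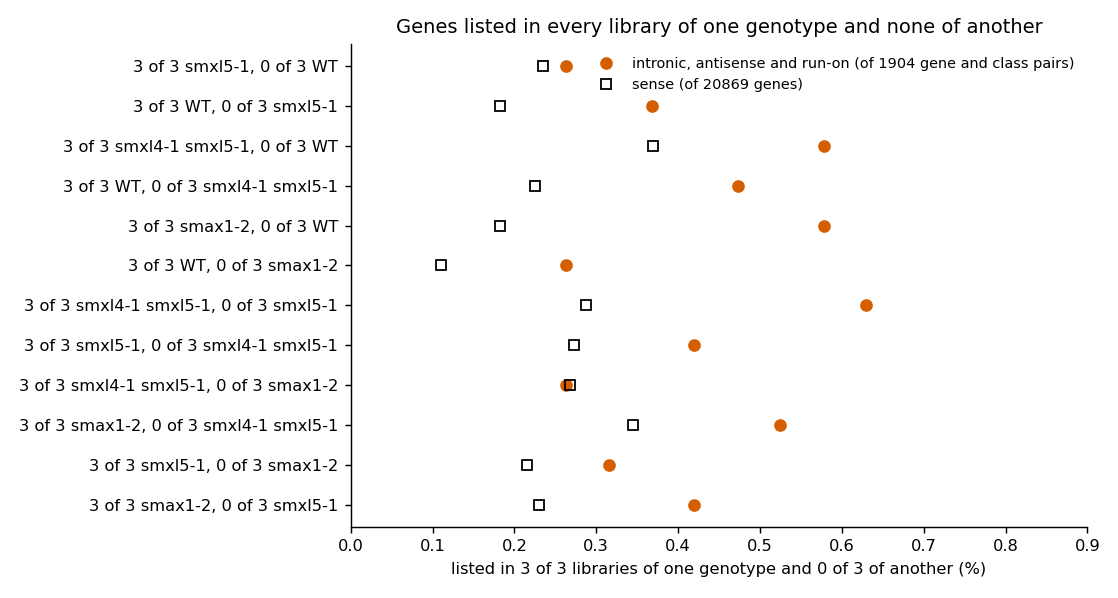
Percent of gene and class pairs listed in 3 of 3 libraries of one genotype and 0 of 3 of another (x axis), by pair and direction (rows); filled points are intronic, antisense and run-on pairs, open squares sense genes. The filled points lie between 0.263% and 0.63% and the squares between 0.11% and 0.369%. Sense genes listed in all 12 libraries, 78.8% of them, cannot have the pattern, so points and squares have unlike bases.

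Most of these pairs were shallow. The highest library of a pair had a median of 21.0 implied fragments, and 9 of the 56 had a library of 30 or more. GOS12 (a Golgi SNARE protein) had an intronic piece of 11.9 to 18.0 implied fragments in the 3 smxl5-1 libraries and in no other. In smax1-2 alone, UNE12 (a bHLH transcription factor) had an intronic piece of 9.59 to 18.0, AT3G53270 one of 9.59 to 11.9, and the pseudogene AT3G29755 a run-on piece of 61.1, 58.2 and 58.6 implied fragments and 530 to 664 nucleotides. AT5G13810 was run-on in WT alone, in pieces of 55 to 58 nucleotides with 9.59 to 14 implied fragments and 7447 to 20465 FPKM. No pair was private to the double mutant.

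Some patterns were shared between genotypes. AT2G35460 had a run-on piece of 18.0 to 31 implied fragments in smxl5-1 and 11.9 to 26.9 in smxl4-1 smxl5-1, and none in smax1-2 or WT, so it was listed in the 6 libraries labelled with smxl5-1 and in no other. AT4G25707 had 42.4, 30 and 36.2 implied fragments in smxl5-1 and 34.2, 30 and 37.6 in WT, and was unlisted in smxl4-1 smxl5-1 and smax1-2. These 2 genes were singled out after their values were seen.

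In the double mutant and not in WT the highest FPKM belonged to BHLH48 and ARAC4 (a ROP GTPase of cell polarity), both intronic, and ROPGEF2 (an activator of ROP GTPases), run-on, with at most 21.0 implied fragments each. Deeper was the antisense piece of BGLU20, a beta-glucosidase gene first described in anthers, with 99.4, 159 and 231 implied fragments in smxl4-1 smxl5-1 and none in WT. It was also listed at 149 in 1 smxl5-1 library and at 137 and 128 in 2 smax1-2 libraries, and had no sense transfrag in any library. NRPE7 (a subunit of RNA polymerase V), like BGLU20 and AT3G29755 named after its values were seen, was antisense in the double mutant, at 14.7 to 25.7, and in neither smxl5-1 nor WT. WT and not the double mutant had AT5G13810, AT4G25707 and an intronic piece of BT2 (a BTB and TAZ domain protein of nitrogen and sugar responses) of 11 to 11.9 implied fragments.

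In smax1-2 and not in WT the highest FPKM belonged to the intronic pieces of AT1G01490 (13 to 21.0 implied fragments), UNE12 and AT5G47310 (9.59 to 16.0). WT and not smax1-2 had AT5G13810, RPS6 (9.59 to 33.4, intronic) and AT4G25707. In smxl5-1 and not in WT there were GOS12 and the run-on pieces of AT3G17090 (9.59 to 11) and AT1G36630 (11.9 to 14.7), and WT and not smxl5-1 had AT5G13810 and the intronic pieces of AT1G32120 (9.59 to 25.7) and ATSRL1 (18.0 to 20.0), an SR-like splicing protein. Between mutants, AGD14 intronic was listed in smxl4-1 smxl5-1 (18.9 to 31.9) and smax1-2 (13 to 23.7) and in no smxl5-1 library. ABF3, an abscisic acid transcription factor, had an intronic piece of 14.7 to 26.9 in smxl5-1 and none in smxl4-1 smxl5-1 or smax1-2. PNSL2, a subunit of the chloroplast NDH complex, had a run-on piece of 13 to 21.0 in smxl5-1 and none in smxl4-1 smxl5-1. Listed in smxl4-1 smxl5-1 and in no smxl5-1 library was an intronic piece of AT3G15770 (14 to 22 implied fragments). Against smax1-2 the double mutant alone listed run-on pieces of AT5G27990 (11 to 29.6) and AT2G24530 (9.59 to 17). An intronic piece of AT2G14045 (32.7 to 66.1) was listed in smax1-2 and in no double mutant library.

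Among the mutated genes, SMXL5 had an intronic transfrag in 1 smxl5-1 library (25.8 implied fragments) and 1 smxl4-1 smxl5-1 library (14), and SMXL4 and SMAX1 had none. Of 60 genes on the lists of RNA processing and known noncoding partners, 3 (5.0%) had any such transfrag, against 8.8% of all 21001 genes listed: RPP7, the cleavage factor CSTF77 in 1 WT library at 9.6 implied fragments, and the exosome nuclease RRP6L2 in 2 double mutant libraries and 1 smax1-2 library at up to 18.0. None of the 13 genes with a known noncoding partner, FLC and DOG1 among them, had one. The lists were chosen with earlier results known. The sense values of 19 tested genes of 3′ end formation and 10 of the exosome gave 0 calls in smxl5-1, the double mutant and smax1-2 against WT, with medians of 0.01, 0.10 and 0.06 for 3′ end formation and 0.02, 0.09 and 0.12 for the exosome (log2), against 0.05, 0.04 and 0.07 over all 18884 sense values. The 10 tested RNA silencing genes gave 0 calls and medians of -0.05, 0.12 and 0.05, the 6 intron heterochromatin genes 0 calls and -0.12, 0.04 and 0.02, and the 10 tested partner genes 1 lower call in smxl4-1 smxl5-1 and medians of -0.08, 0.03 and -0.04. Over all sense values 98 were called higher and 33 lower in smxl5-1 against WT, 236 and 177 in smxl4-1 smxl5-1, and 10 and 7 in smax1-2. Leaf genes (RBCS1A at 19116 to 27621 FPKM) and root genes (CASP1 at 16.2 to 46.8 FPKM) were listed in all 12 libraries, as whole seedlings hold, and the seed gene CRU3 and the petal gene AP3 were listed at 0.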

How the data were processed

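Poly-A RNA of 12 seedling pools was sequenced, per the labels' protocols, and aligned with TopHat2 2.0.14 to TAIR10, per the submitters' processing notes. The deposited tables carry, per the file headers, the columns of a Cuffcompare transcript map. How strand was handled, and which assembler version ran, is not given in the sources used here. The authors' abundance is in FPKM with a lower and an upper bound, per the file headers. The deposited coverage column is a signal of read depth, and the deposited isoform abundance is a percent of the major transcript of its locus. No counts of reads were used, so p values measure the spread between pools of seedlings. Groups and replicate numbers follow the sample titles.

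Transfrags of class i, x and p were taken as they stand. FPKM was summed per gene, class and library, and an unlisted gene was set to 0. Implied fragments are the square of 2 times the FPKM over the half-width of its bounds. They are inferred, came out whole within 0.01 for 1365 of 3164 intronic, 28 of 267 antisense and 872 of 2335 run-on transfrags, and cover counting error alone. Sense values are FPKM restored to the reference length with an assumed fragment length of 200 ± 80. Values of at least 1 FPKM in at least 3 libraries entered a limma-trend fit (limma 3.58.1, R 4.3.3) of log2(FPKM + 1), a scale that understates changes of low values, with 1 fit of 4 groups and 6 comparisons. Numbers per library were tested by exact permutation in Python 3.11.15 (numpy 2.4.6, pandas 2.3.3, scipy 1.17.1; figures with matplotlib 3.10.9). The scripts were tested on simulated data. Genes were named by rank: per class the 8 highest in median FPKM and 4 longest of those in all 12 libraries, the 3 highest in mean FPKM of those in 3 and 0 libraries per direction, and the 4 largest called changes. Members and lists were chosen with earlier results of these data known. Locations come from TAIR10.1, which holds 1240 of 1249 intronic, 99 of 105 antisense and 528 of 550 run-on genes. Noncoding neighbours are annotated genes other than protein-coding genes, pseudogenes and genes of type "other". Alternatives were another pseudocount, filter, normalization or unit, a minimum length, the replicate number as a block and leaving out each library. The test on implied fragments scaled to the library total was added after the data were seen. The values of 1 gene listed in 3 and 0 libraries are not reported here.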

Additional observations from a re-analysis of the deposited data

Results flagged for a closer look

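Intergenic transfrags (class u), which enter none of the comparisons, numbered 213, 235 and 202 in smax1-2 (mean 217), against 183, 186 and 186 in WT (mean 185). All 3 smax1-2 libraries lay above the 3 WT libraries, which is why they are given here. In smxl5-1 they numbered 197, 172 and 193 and in smxl4-1 smxl5-1 182, 236 and 222, both overlapping WT. The smax1-2 libraries also lay above the WT libraries in transfrags of all classes together, as given above. No group was large enough to look for single libraries far from the rest, since each holds 3.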

How the results depend on the processing

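The tests of transfrags per library stayed above the threshold under every alternative run, with adjusted p from 0.151 to 0.827 for intronic, 0.664 to 0.97 for antisense and 0.416 to 0.97 for run-on when 1 library was left out. The lower bound of FPKM was above 0 for all 5766 transfrags, so that filter changed nothing. With transfrags of at least 200 nucleotides, genes in all 12 libraries fell to 1 intronic and 26 run-on, and genes in 3 and 0 libraries to 4 for smxl5-1 and WT, 10 for smax1-2 and WT, 10 for smxl4-1 smxl5-1 and smxl5-1, and 6 for smxl5-1 and smax1-2. Without 1 library, genes in all remaining libraries ran from 6 to 8 intronic, 1 to 2 antisense and 46 to 49 run-on, and genes in all and none of the remaining libraries rose, since fewer libraries must match: 27 to 36 for smxl5-1 and WT, 32 to 45 for smxl4-1 smxl5-1 and WT, 31 to 48 for smax1-2 and WT, 34 to 51 for smxl4-1 smxl5-1 and smxl5-1, 31 to 49 for smxl4-1 smxl5-1 and smax1-2, and 27 to 47 for smxl5-1 and smax1-2.

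The number of called members also changed. Implied fragments gave 0 calls for smxl5-1 against WT, 6 for smxl4-1 smxl5-1 against WT, 2 for smax1-2 against WT, 5 for smxl4-1 smxl5-1 against smxl5-1 and 2 for smxl5-1 against smax1-2. At an unadjusted p under 0.05 the first gave 26 members, a count without the share over all values. Fragments estimated from FPKM and length gave 3 for smax1-2 against WT, 7 for smxl4-1 smxl5-1 against smxl5-1 and 3 for smxl5-1 against smax1-2. Plain FPKM sums for all values gave 2 for smxl4-1 smxl5-1 against WT, 4 for smax1-2 against WT, 3 for smxl4-1 smxl5-1 against smxl5-1 and 3 against smax1-2. Fitting the members alone gave 1 for smxl4-1 smxl5-1 against WT, 1 against smxl5-1 and 3 against smax1-2. Leaving out 1 library, in FPKM or implied fragments, gave 0 to 6 for smxl5-1, 2 to 12 for smxl4-1 smxl5-1 and 0 to 7 for smax1-2 against WT, 3 to 13 and 2 to 9 for smxl4-1 smxl5-1 against smxl5-1 and smax1-2, and 1 to 9 for smxl5-1 against smax1-2. The cause was not tested. The FPKM calls of AT3G29647, WRKY12, NAC60, AT4G31980 and AT1G13609 all ended with plain sums and with the members fitted alone. In implied fragments 3 changes reversed: NAC60 to 0.02 without smxl4-1 smxl5-1 replicate 2, AT4G31980 in smax1-2 to -0.19 without WT replicate 3, and AT1G13609 to 0.062 without smxl4-1 smxl5-1 replicate 3.

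The replicate numbers of the titles did not pair the libraries. Deviations of log2(FPKM + 1) from the mean of the genotype were correlated between libraries of different genotypes. These correlations were -0.143 to 0.032 for same-numbered libraries and -0.052 to 0.18 for the others. The deposited file names give replicates 1 and 2 of smxl4-1 smxl5-1 the opposite numbers. The 2 highest correlations were of smxl4-1 smxl5-1 replicate 1 with smxl5-1 replicate 2 (0.18) and of smxl4-1 smxl5-1 replicate 2 with smxl5-1 replicate 1 (0.121), and a block by file name was not fitted. The same 2 double mutant libraries, with numbers swapped likewise, gave -0.01 and -0.022 with smax1-2 and -0.028 and -0.048 with WT. The 2 pairs of highest correlation also had like median transfrag lengths, 974 and 993 nucleotides in the first and 745 and 792 in the second. Whether this sets the correlations was not tested. With the replicate block the calls were 3, 6 and 6 for smxl5-1, the double mutant and smax1-2 against WT, 9 and 5 for smxl4-1 smxl5-1 against smxl5-1 and smax1-2, and 6 for smxl5-1 against smax1-2; with the replicate block on implied fragments they were 0, 3, 0, 4, 4 and 1. The median intronic piece had 14 implied fragments and the smallest 7.24, and whether depth set which pieces were listed was not tested.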
